A study of Mus musculus with 36 samples.

Results

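The TRAP-seq response to chemical long-term potentiation (LTP) was compared between 60 and 30 min after induction in mouse hippocampal mini-slices. By the rule, the 12 TRAP-seq libraries of these times were taken from the 36 of the series, and for each gene the LTP minus basal difference at 30 min was subtracted from that at 60 min, with each pair of LTP and basal slices from the same mice as a block. The groups were LTP at 60 min, basal at 60 min, LTP at 30 min and basal at 30 min, with 3 replicates each. All slices came from adult C57BL/6 mice of both sexes that were heterozygous for RiboTag and for Camk2a-cre, and basal slices received the vehicle for the same time as their LTP partners. LTP was induced with forskolin, followed by forskolin with high potassium and calcium and no magnesium. The CA3/CA1 slices had the dentate gyrus cut away, and the slices of several mice were pooled in each replicate.

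RiboTag mice carry a ribosomal protein, Rpl22, that gains an HA tag in cells with Cre recombinase, here excitatory neurons in which the Camk2a promoter drives Cre. Pulling down the tag (TRAP) collects the transcripts bound to ribosomes of those cells, so a TRAP-seq level can move with the amount of an mRNA or with its ribosome binding. Forskolin raises cAMP, and together with calcium entry this activates CREB and MAP kinase, which switch on immediate early genes within minutes. The first products are transcription factors such as Fos, Egr and Nr4a family members, followed by effectors and by inhibitors of the same pathways, and many of the transcripts decay quickly.

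The promoters of 7 such genes that responded more strongly at 60 min are shown because they carry the site that CREB binds, the cAMP response element. Each line is 30 bases upstream of a transcription start site, 5′ to 3′ on the gene's strand, from RefSeq on GRCm38.p6, the patched form of the mm10 build of the files. Capitals mark the full element TGACGTCA in the first 3 and its 5-base core, TGACG or CGTCA, in the others.
Btg2, chr1:134079303-134079332, minus strand: gttcccaataaTGACGTCAgtgagcgatga
Dusp1, chr17:26508597-26508626, minus strand: ggtagggcgggTGACGTCAccgcccggtca
Errfi1, chr4:150855008-150855037, plus strand: gctgcgggcgtTGACGTCAcgttgtcgctc
Fos, chr12:85473812-85473841, plus strand: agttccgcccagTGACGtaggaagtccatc
Nr4a1, chr15:101266794-101266823, plus strand: cccctctccatgCGTCAcggagcgcttaag
Atf3, chr1:191183334-191183363, minus strand: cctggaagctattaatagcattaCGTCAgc
Egr2, chr10:67537802-67537831, plus strand: tatgggcagcgaCGTCAcgggtattgaaga
The capitals end 158 bases before the start site in Btg2, 135 in Dusp1, 43 in Errfi1, 61 in Fos, 35 in Nr4a1, 2 in Atf3 and 50 in Egr2, whose nearest of 5 annotated start sites was used.

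Both strands of the 250 bases before each start site were searched. Of 20 genes of the lists of activity-regulated transcription factors, early effectors and MAP kinase feedback whose response was called higher at 60 min, 15 had a promoter in the table, and 13 of these held a core (86.7%) and 3 the full element (20%). Among all 11098 tested genes with a promoter, 29.9% held a core and 3% the full element, and over all 32851 promoters of the table the shares were 17.8% and 1.55%. Of 78 matched genes called higher, 31 held a core (39.7%), and of 101 called lower, 29 did (28.7%). The full element contains both cores and was counted in both. A match describes the sequence and was not tested as a binding site. The lists gather activity-regulated genes and were chosen with earlier results known. The share among their members not called higher was not computed. The high share can therefore belong to the lists, and it does not tie the element to a stronger response at 60 min.

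The libraries held 38490768 to 42796146 reads on genes at 60 min and 21318990 to 52375072 at 30 min, without Rn45s, the ribosomal RNA precursor. At 30 min each LTP library was shallower than each basal one. Rn45s took 8.04% of the reads of LTP replicate 2 and 2.9% of basal replicate 1 at 30 min, and at most 0.16% of each other library. Basal replicate 1 at 60 min is named so by its title but carries a time point label of 30 min. It was kept at 60 min, and the count of called genes and the genes in which it stood apart are also given without it. Excitatory neuron markers summed to 6806 to 7161 CPM (counts scaled to the total of reads on genes) in LTP slices at 60 min. In basal slices at 60 min the sum was 6833 to 7263 CPM. At 30 min it was 6288 to 6695 CPM in LTP and 6544 to 6809 CPM in basal slices. Interneuron markers summed to 53.8 to 79.4 CPM over all 12 libraries. Markers of glia took more. Oligodendrocyte markers summed to 1037 to 1204 CPM at 60 min and 487 to 653 CPM at 30 min, without overlap. Astrocyte markers summed to 564 to 691 CPM at 60 min and 422 to 601 CPM at 30 min. Basal replicate 1 at 60 min had 1053 CPM of oligodendrocyte markers, beside 1037 and 1096 CPM in the other basal libraries of that time. Basal libraries at 30 min had 487 to 606 CPM of them. Mice, sequencing run, single-end reads at 30 min against paired-end reads at 60 min, and time cannot be told apart, except that whatever LTP and basal slices of a time share drops out of the difference.

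Reads of the X-linked Xist RNA and of 4 Y-linked genes showed the sex of the mice behind each pair. Replicate 1 at 60 min and replicate 1 at 30 min had 94.6 to 135 CPM over the Y-linked genes and at most 6 reads of Xist. Replicates 2 and 3 at 60 min had both, with 69.2 to 81.8 CPM over the Y-linked genes, whereas replicates 2 and 3 at 30 min had Xist and at most 5 Y-linked reads. Time and sex makeup therefore go together in 2 of the 3 replicates. Replicate 1, with Y-linked reads and almost no Xist at both times, had a median difference of 0.51 over the 113 genes called higher and -0.69 over the 136 called lower. It is 1 of the 3 pairs that chose these genes and holds the library with conflicting time labels, so these medians are a description and no check on sex makeup.

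Of 14847 genes tested with edgeR's quasi-likelihood test, 249 (1.68%) had a response that differed between times, at a Benjamini-Hochberg adjusted p under 0.1 and an absolute log2 difference above 0.4. The response was higher at 60 min for 113 genes (0.761%) and lower for 136 (0.916%). The 3 pairs at 60 min lay all above the 3 pairs at 30 min for 104 of the 113 genes, beside 10% of all genes, and all below them for 130 of the 136, beside 10.7% of all genes. The calls rest on these same pairs, so the counts are a description and no separate check. The difference had a median size of 0.57 for the genes called higher and 0.70 for those called lower. Without the pairs as a block, and the methods of the study mention none, 11 genes were called. They were 9 higher (Egr2, Dusp1, Errfi1, Junb and Trib1 among them) and 2 lower (Smarca4 and Col6a3). All 249 kept their direction, in a fit of the same libraries that is no separate support. With 2 pairs at one time, the count was 163 without replicate 2 at 60 min, 107 without replicate 3 at 60 min and 248 without replicate 1 at 60 min, of which 188 were shared. With the block, the p-values measure how LTP over basal varied between the pairs of a time, not how levels varied between sets of mice. The estimate of that spread was mostly shared across genes, with 4 residual degrees of freedom per gene beside a median of 15.6 from all genes. The SE of a single gene can therefore be smaller than its own 3 pairs per time would give. DESeq2 with the block called 80, of which 77 were among the 249 with the same direction.

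**Figure D1:**
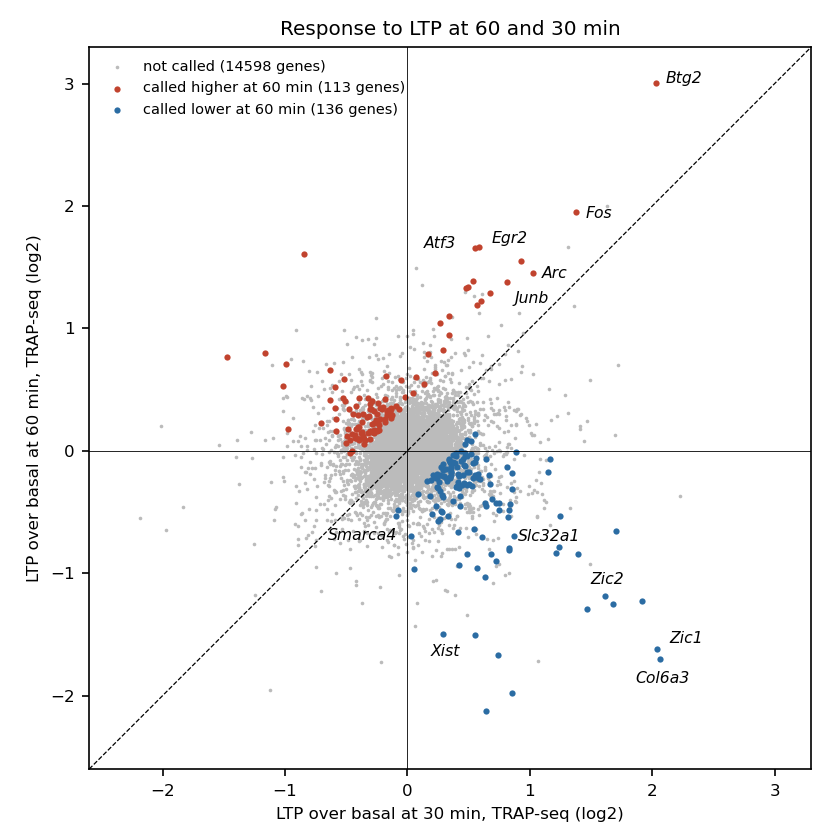
Each point is a gene, with the log2 ratio of LTP over basal at 60 min on the vertical axis and at 30 min on the horizontal axis, both from the fit of 12 TRAP-seq libraries. Red points are the 113 genes called higher and blue points the 136 called lower at 60 min, the dashed line marks equal responses, and 2 genes lie outside the axes. Btg2, Fos, Arc, Egr2 and Atf3 sit above the line at the upper right, and Col6a3, Zic1, Zic2 and Slc32a1 at the lower right.

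Among the 113 genes called higher, 13 rose at both times and more at 60 min, 18 passed as a rise at 60 min and not at 30 min, 26 passed as a fall at 30 min and not at 60 min, 2 rose at 60 min and fell at 30 min, and 54 passed at neither time on its own. For the genes called lower, 60 passed as a rise at 30 min and not at 60 min, 24 as a fall at 60 min and not at 30 min, 9 fell at 60 min and rose at 30 min, and 43 passed at neither time. At each time on its own, 108 genes rose (0.727%) and 98 fell (0.66%) at 60 min, and 198 rose (1.33%) and 79 fell (0.532%) at 30 min.

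Activity-regulated transcription factors made up the largest group with a called difference among the lists. Of 29 measured, 12 had a higher response at 60 min and none a lower one, with a median difference of 0.29 on the log2 scale, beside -0.0045 over all genes. They were Fos, Fosb, Junb, Egr1, Egr2, Egr4, Nr4a1, Atf3, Ier2, Klf2, Klf4 and Klf6. At 60 min 15 of the 29 rose against basal and at 30 min 9 did. The count was 11 to 14 in the alternatives with the block that kept the minimum size, and 4 without the block. With no minimum size it was 18 higher and 1 lower.

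Atf3, a stress and activity-induced factor of the ATF/CREB family, had 72.9, 105 and 90.2 CPM in LTP slices and 23.2, 31 and 30.9 CPM in basal slices at 60 min. At 30 min it had 51.1, 34.1 and 58.5 CPM in LTP slices and 30.5, 28.3 and 38.7 CPM in basal slices. The basal levels of the 2 times overlapped, while every LTP library at 60 min was above every LTP library at 30 min. The response was 3.15-fold at 60 min and 1.47-fold at 30 min, a log2 difference of 1.10 ± 0.09 (SE, n = 3 pairs per time, edgeR adjusted p = 9.01e-07).

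Egr2, a zinc finger factor of the Egr family, had 46.1, 51.9 and 59.7 CPM in LTP slices and 14.8, 16.7 and 17.9 CPM in basal slices at 60 min. At 30 min the values were 19.6, 21.6 and 24.4 CPM in LTP slices and 15.3, 14.6 and 13.5 CPM in basal slices. Again the basal ranges of both times overlapped and the LTP ranges did not. The difference was 1.08 ± 0.10 (edgeR adjusted p = 3.02e-06), from a 3.18-fold response at 60 min and a 1.5-fold response at 30 min.

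Fos, the AP-1 subunit most used as a marker of active neurons, was already high at 30 min. It had 635, 746 and 739 CPM in LTP slices and 164, 195 and 190 CPM in basal slices at 60 min, and 409, 399 and 510 CPM in LTP slices and 160, 168 and 177 CPM in basal slices at 30 min. LTP and basal libraries were far apart at both times, and the 3.87-fold response at 60 min exceeded the 2.60-fold response at 30 min by 0.57 ± 0.06 on the log2 scale (edgeR adjusted p = 1.51e-05). Junb, its AP-1 partner, rose at both times with a difference of 0.57 ± 0.07, and Fosb rose at 60 min and had a log2 response of 0.29 at 30 min, under the minimum size, a difference of 0.54 ± 0.05.

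Nr4a1, an orphan nuclear receptor, had 231, 261 and 257 CPM in LTP slices and 115, 119 and 115 CPM in basal slices at 60 min. At 30 min it had 109, 146 and 144 CPM in LTP slices and 97.4, 118 and 97.7 CPM in basal slices. The ranges of the 2 treatments overlapped at 30 min and not at 60 min. Within each pair LTP lay above basal at 30 min too. The log2 response there was 0.34 (edgeR adjusted p = 1.69e-04), under the minimum size. The difference was 0.76 ± 0.07 (edgeR adjusted p = 3.62e-06). Egr1 had a difference of 0.61 ± 0.06 and Egr4 of 0.62 ± 0.09.

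Among the Krüppel-like factors, Klf4 and Klf2 rose at both times, with differences of 0.84 ± 0.09 and 0.62 ± 0.09. Klf6 was called at 60 min and not at 30 min. It had 105, 120 and 130 CPM in LTP slices and 85.5, 85.5 and 90.5 CPM in basal slices at 60 min, against 101, 101 and 104 CPM in LTP slices and 101, 104 and 105 CPM in basal slices at 30 min. LTP lay above basal in all 3 pairs at 60 min, the treatments overlapped at 30 min, and the difference was 0.46 ± 0.06.

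Npas4, a neuron-specific factor induced by calcium entry, rose at both times, 3.17-fold at 60 min and 2.49-fold at 30 min. Its difference of 0.35 ± 0.07 had an edgeR adjusted p of 0.00733 and did not reach the size of 0.4. Jun, with a difference of 0.38 ± 0.06, and Myc, with 0.29 ± 0.09, rose at 60 min and likewise missed that size.

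**Figure D2:**
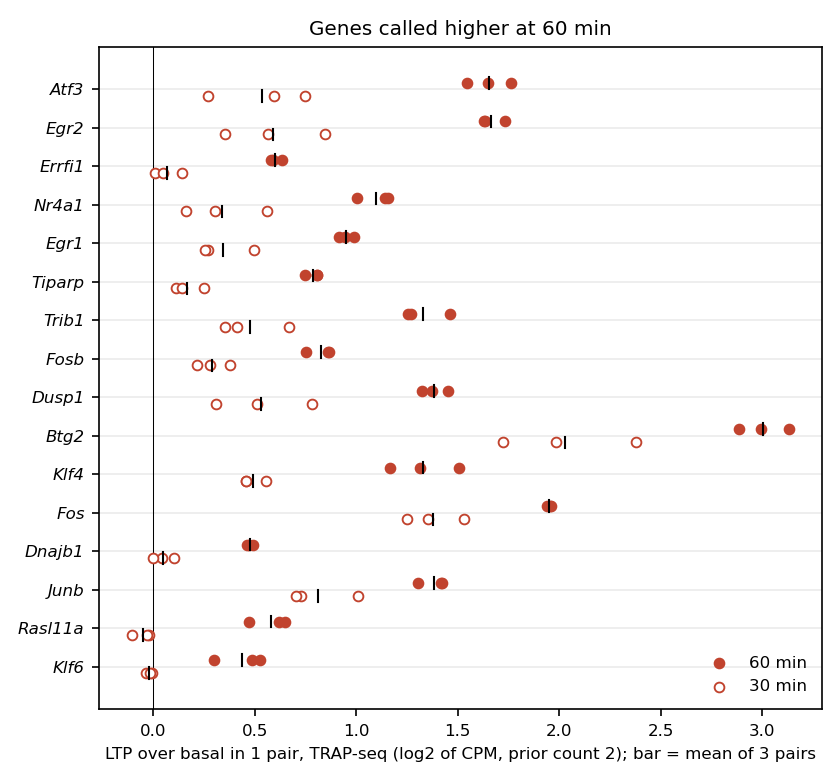
Each point is the log2 ratio of LTP over basal in 1 pair of slices, for the 16 named genes with the smallest p among those called higher at 60 min, with 60 min (filled) above 30 min (open). Bars mark the mean of 3 pairs. Only genes whose 3 pairs at 60 min lie right of the 3 at 30 min were drawn.

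Of 30 activity-regulated effectors measured, 5 had a higher response at 60 min (Btg2, Arc, Tiparp, Trib1 and Sik1) and none a lower one, and the median difference was 0.11. In LTP slices 15 rose at 60 min and 9 at 30 min. The count of 5 lay between 4 and 8 in the alternatives with the block that kept the minimum size, and was 1 without the block. With no minimum size it was 9 higher and 1 lower.

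Btg2, an antiproliferative protein that promotes mRNA deadenylation, had the largest response of the named genes at 60 min. It had 314, 401 and 386 CPM in LTP slices and 42.5, 50.4 and 44 CPM in basal slices at 60 min, and 192, 150 and 244 CPM in LTP slices and 48.6, 45.5 and 47 CPM in basal slices at 30 min. Basal levels overlapped between the times, and LTP levels did not. The response was 8.03-fold at 60 min and 4.09-fold at 30 min, a difference of 0.97 ± 0.10 (edgeR adjusted p = 1.23e-05).

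Arc, which controls AMPA receptor removal from synapses, had 759, 798 and 848 CPM in LTP slices and 299, 274 and 308 CPM in basal slices at 60 min. At 30 min it had 449, 472 and 546 CPM in LTP slices and 242, 241 and 237 CPM in basal slices. Both LTP and basal libraries were higher at 60 min, and the response was 2.73-fold at 60 min and 2.03-fold at 30 min, a difference of 0.43 ± 0.07 (edgeR adjusted p = 0.00247).

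Tiparp, a mono-ADP-ribosyltransferase, rose at 60 min, with a log2 response of 0.79, and had 0.17 at 30 min (edgeR adjusted p = 0.0119), under the minimum size, a difference of 0.62 ± 0.06. Sik1, a kinase that holds back CREB coactivators, rose at 60 min, with a difference of 0.41 ± 0.08. Sik1 was the 1 of 22 measured genes of the cAMP and CREB pathway with a called difference. Other effectors rose at both times with no called difference. Gadd45g, a stress-induced growth arrest protein, was 4.00-fold higher at 60 min and 3.09-fold higher at 30 min, a difference of 0.37 ± 0.08. Arl4d, a small GTPase, was 2.27-fold higher at 60 min and 2.57-fold higher at 30 min, and its difference of -0.18 ± 0.08 had an edgeR adjusted p of 0.291. Ptgs2 and Kcnj2 were of this kind too, with differences of 0.31 ± 0.06 and 0.13 ± 0.07. Pcdh8, a protocadherin, rose at 30 min, with a log2 response of 0.55, and had 0.30 at 60 min (edgeR adjusted p = 9.03e-06), under the minimum size. Its difference of -0.26 ± 0.05 was not called.

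Feedback inhibitors of MAP kinase signalling made up a further group, in which 4 of 18 (Dusp1, Dusp5, Errfi1 and Trib1) had a higher response at 60 min and none a lower one, with a median difference of 0.08. Here 6 rose at 60 min and 2 at 30 min.

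Dusp1, a phosphatase that inactivates MAP kinases, had 71.6, 74.8 and 75.1 CPM in LTP slices and 28.6, 28.8 and 27.4 CPM in basal slices at 60 min. At 30 min it had 45.4, 40.8 and 47.4 CPM in LTP slices and 31.9, 32.9 and 27.5 CPM in basal slices. LTP libraries were above basal ones at both times, and the difference was 0.85 ± 0.09 (edgeR adjusted p = 7.99e-06). Trib1, a pseudokinase, had a difference of 0.85 ± 0.08. Errfi1, an inhibitor of EGF receptor signalling, had 249, 274 and 268 CPM in LTP slices and 167, 182 and 172 CPM in basal slices at 60 min, and 182, 182 and 189 CPM in LTP slices and 181, 176 and 171 CPM in basal slices at 30 min. Its LTP libraries at 60 min stood apart from the 9 others, and it rose at 60 min (difference 0.53 ± 0.05, edgeR adjusted p = 3.62e-06). Dusp6 rose at 60 min and its difference of 0.30 ± 0.06 was not called.

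**Figure D3:**
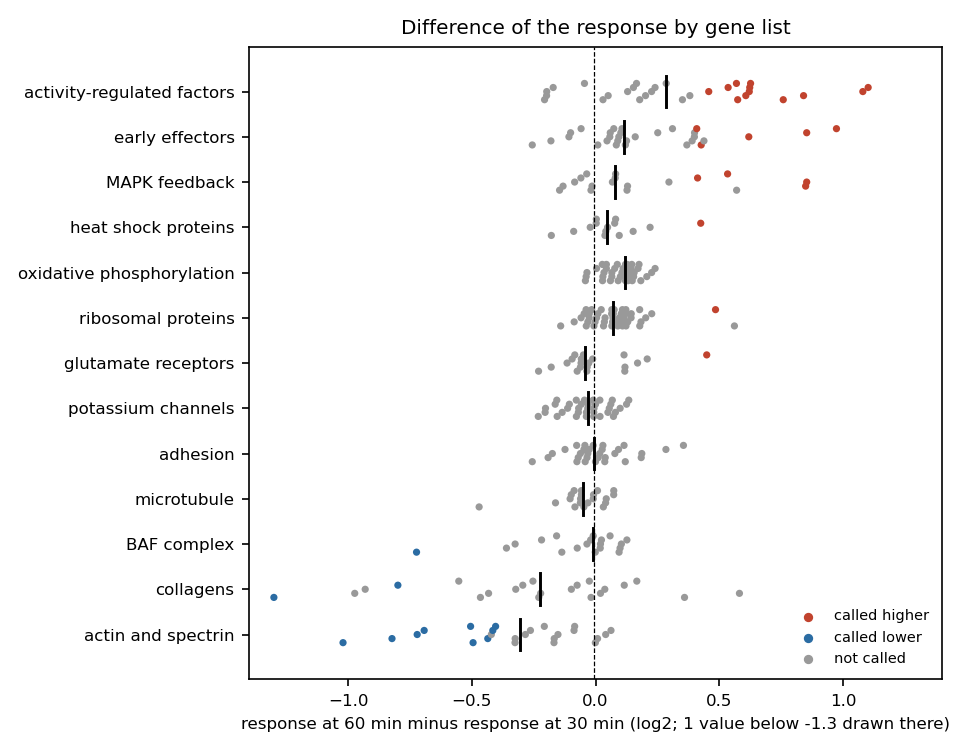
Each point is a gene of the named list, at its response at 60 min minus that at 30 min in log2 units, and the vertical bar marks the list's median. Red points were called higher and blue points lower, with activity-regulated factors (12 of 29) and the actin and spectrin list (9 of 24) holding the most of either kind.

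In the remaining lists few genes were called. Dnajb1, a heat shock cochaperone, was the 1 of 14 heat shock genes, with a difference of 0.42 ± 0.05. Grin3a, an NMDA receptor subunit, was the 1 of 20 glutamate receptor genes, with a difference of 0.45 ± 0.10. None of 35 potassium channels, 30 adhesion genes, 20 microtubule genes or 14 genes of the integrated stress response was called by edgeR. The stress-induced Atf3 was counted with the transcription factors and not in that last list. With no minimum size, 2 genes of the stress response list were higher and 0 lower. Adhesion genes then had 2 higher and 2 lower, potassium channels 0 and 4, and microtubule genes 0 and 1. Of 39 genes of oxidative phosphorylation none was called, and 36 had a difference above 0, beside 7206 of all 14847 genes. Their median of 0.12 was 0.04 without replicate 2 at 30 min and with the length and GC trend removed. Among 46 ribosomal protein genes Rps16 alone was called, with a difference of 0.48 ± 0.09, and 34 lay above 0. Their median of 0.07 was 0.01 with the length and GC trend removed, 0.02 without replicate 2 at 30 min and 0.16 without replicate 1 at 30 min. Reads of ribosomal protein genes can be shared with pseudogenes, so these values are uncertain. Of 18 Hes, Hey, Id and Sox transcriptional regulators, Sox9 and Sox8, factors of glia, were called higher, with differences of 0.78 ± 0.15 and 0.48 ± 0.10, and Sox1 lower. Sox9 had 7.32, 7.83 and 7.13 CPM in LTP slices and 4.05, 3.33 and 3.41 CPM in basal slices at 60 min, and 5.63, 4.47 and 6.24 CPM in LTP slices and 4.82, 4.41 and 4.31 CPM in basal slices at 30 min. It rose at 60 min, where the treatments did not overlap, and no marker of astrocytes was called. Among 33 G protein-coupled receptors and their regulators, the serotonin receptor gene Htr2c was called higher, with a difference of 0.60 ± 0.13, and Gpr146 lower, with -0.41 ± 0.11, a call kept in 5 of 17 alternatives.

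Smarca4, also called Brg1, is a catalytic subunit of BAF chromatin remodellers. After Xist it had the smallest p among the genes with a lower response at 60 min. It had 429, 405 and 435 CPM in LTP slices and 757, 637 and 662 CPM in basal slices at 60 min, against 165, 173 and 154 CPM in LTP slices and 164, 152 and 164 CPM in basal slices at 30 min. LTP lay below basal in all 3 pairs at 60 min, and the treatments overlapped at 30 min. The difference was -0.72 ± 0.07 (edgeR adjusted p = 3.62e-06) and its adjusted p was 0.00879 without the block. In total RNA from the same slices the level stayed between 191 and 228 CPM in all 12 libraries, so the higher level at 60 min was seen in the TRAP libraries of both treatments. Its alternative ATPase, Smarca2, had a difference of -0.36 ± 0.06, below the size needed, and Smarca4 was the 1 of 19 BAF genes called.

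Thrap3, a protein of mRNA splicing and decay, had 140, 127 and 128 CPM in LTP slices and 160, 154 and 145 CPM in basal slices at 60 min, and 64.1, 73.8 and 62.8 CPM in LTP slices and 56.9, 57.1 and 57 CPM in basal slices at 30 min. LTP lay below basal at 60 min and above basal at 30 min, though neither response passed the size of 0.4 on its own. The difference was -0.44 ± 0.06 (edgeR adjusted p = 2.65e-04).

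**Figure D4:**
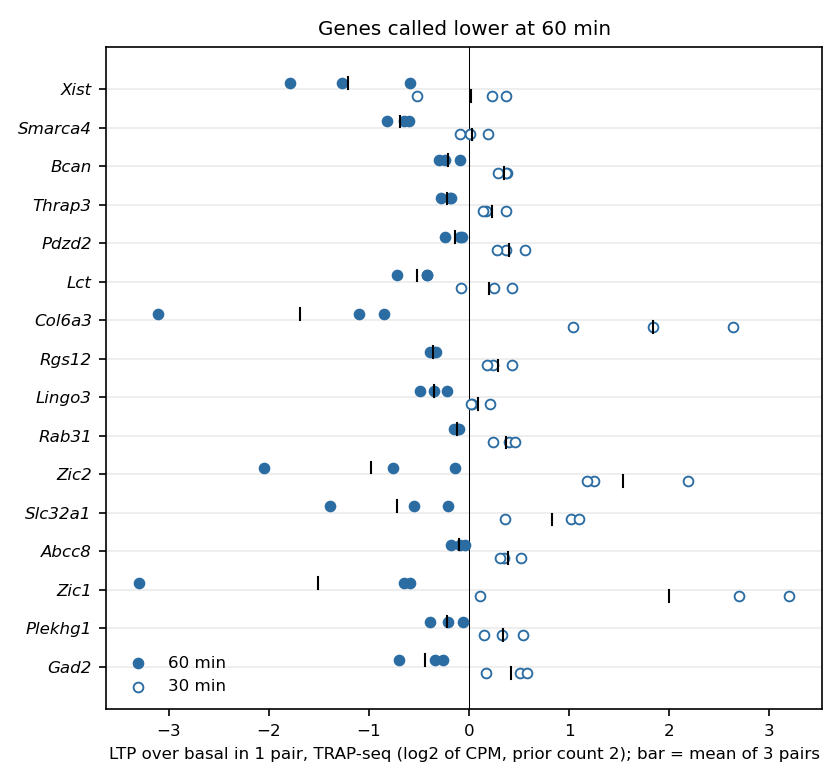
Each point is the log2 ratio of LTP over basal in 1 pair of slices, for the 16 named genes with the smallest p among those called lower at 60 min, with 60 min (filled) above 30 min (open). Bars mark the mean of 3 pairs. Only genes whose 3 pairs at 60 min lie left of the 3 at 30 min were drawn.

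The actin and spectrin cytoskeleton held the largest group of genes called lower. Of 24 measured, 9 were called lower (Dst, Flna, Macf1, Myh9, Myo6, Sptan1 and Tln1 among them) and none higher, 21 had a difference below 0, and the median was -0.30. The median response was -0.00 at 60 min and 0.29 at 30 min, where 6 of them rose. Flna, an actin crosslinker, had an LTP over basal ratio of 0.825 at 60 min and 1.36 at 30 min, with a difference of -0.72 ± 0.13. The count was 5 with the length and GC trend removed, 4 without replicate 3 at 60 min, 12 without replicate 1 at 60 min and 0 by DESeq2 or without the block. In total RNA none of the 24 was called and the median was 0.10.

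Transcript length moved with the difference. Over 10349 genes with a mean above 5 CPM, Spearman's rho of length was -0.30 with the difference, 0.26 with the response at 30 min and -0.04 with that at 60 min, as a description over genes that share the same libraries. Among the 2070 longest transcripts 31 genes were called lower and 4 higher, and among the 2069 shortest 2 were called lower and 20 higher. In total RNA the correlation had the opposite sign, 0.34. Its part in the called genes was not tested beyond the fit with the trend removed, in which 250 genes were called, 221 of them shared.

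Among 22 collagens, Col6a3 and Col11a2 were called lower, with differences of -3.77 ± 0.54 and -0.80 ± 0.19. Col6a3 had only 0.17 to 2.31 CPM over the 12 libraries, and Col11a2 was called in 10 of 16 alternatives. The count was 0 by DESeq2, 1 without the block, and 1 or 2 with a pair left out. At 30 min 9 of the 22 rose, beside 1.33% of all genes. At 60 min 2 rose and 1 fell, beside 0.727% and 0.66% of all genes.

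In 11 genes the response passed in opposite directions, 9 with a fall at 60 min and a rise at 30 min (Col6a3, Zic1, Zic2, Slc32a1, Gad2, Sox1, Ttn, Sp8 and Npffr1) and 2 with the reverse (Papl and Bmp3). Ttn, Sp8, Npffr1, Papl and Bmp3 were named after their values were seen. Slc32a1, the vesicular GABA transporter, had 2.2, 1.76 and 1.77 CPM in LTP slices and 5.86, 2.6 and 2.06 CPM in basal slices at 60 min, and 2.91, 2.98 and 3.16 CPM in LTP slices and 1.41, 2.31 and 1.44 CPM in basal slices at 30 min. Replicate 1 of the basal slices at 60 min, the library with 2 time labels, stood above the others. Its level was also high for Zic1, with 7.52 CPM against 1.35 and 2.86 CPM in the other basal libraries at 60 min.

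Without that pair the differences were -1.23 for Slc32a1, -2.67 for Zic1, -2.12 for Zic2, -0.74 for Gad2, -3.09 for Col6a3 and -1.15 for Sox1, and each kept an edgeR adjusted p of at most 0.0888. The library was high for Sp8 and Npffr1 as well, and without it their differences of -2.28 and -2.21 were no longer called (edgeR adjusted p = 0.116 and 0.123). Without the block the edgeR adjusted p was 0.217 for both Zic genes, 0.4 for Slc32a1, 0.266 for Gad2, 0.557 for Sox1 and 0.0299 for Col6a3. All of these are low in TRAP libraries. Gad2, the GABA-synthesizing enzyme, had 3.31 to 7.8 CPM in TRAP-seq and 85.6 to 102 CPM in total RNA, where its difference was 0.02 (edgeR adjusted p = 0.92). Slc32a1 had a total RNA difference of -0.01 (edgeR adjusted p = 0.977). In bulk samples, fewer cells of a type and less RNA per cell cannot be told apart, and neither was tested. The source of the reads of these interneuron genes in TRAP libraries was not tested either.

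Interneurons do not express Camk2a-cre, and their markers summed to 63.9 to 72.3 CPM in LTP and 65.8 to 79.4 CPM in basal slices at 60 min, and to 58.5 to 74.0 CPM in LTP and 53.8 to 67.0 CPM in basal slices at 30 min, and the 2 of 10 called lower were Slc32a1 and Gad2 themselves. The ranges of these sums overlapped between treatments at both times. Within pairs, LTP lay below basal in each replicate at 60 min. At 30 min it lay below basal in replicate 2 and above it in replicates 1 and 3. The dentate gyrus was cut away, and markers of its granule cells summed to 209 to 255 CPM in LTP and 255 to 261 CPM in basal slices at 60 min, and to 245 to 282 CPM in LTP and 187 to 251 CPM in basal slices at 30 min, and 3 of 5 (C1ql2, Dsp and Lct) were called lower. That count was 1 by DESeq2, 0 without the block and 2 to 4 in the other alternatives, and C1ql2 was called in 5 of 18 alternatives. Endothelial and mural markers had 2 of 10 called lower, Pecam1 in 9 and Flt1 in 4 of 16 alternatives too. Meningeal fibroblast markers had Dcn called higher and Col6a3 lower of 9 measured, and choroid plexus, excitatory, astrocyte, oligodendrocyte and microglial markers none. The difference was below 0 for 10 of 10 oligodendrocyte markers (median -0.16), 8 of 10 astrocyte markers (median -0.12) and 6 of 8 choroid plexus markers (median -0.48), beside a median of -0.0045 over all genes. Their part in the called genes was not tested.

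Xist, the RNA that silences one X chromosome, had the smallest p among the genes called lower. Where it was above 1 CPM, in replicates 2 and 3, it had 15.1 and 7.37 CPM in LTP slices and 36.4 and 25.5 CPM in basal slices at 60 min, and 35.5 and 37.4 CPM in LTP slices and 27.5 and 31.9 CPM in basal slices at 30 min. LTP lay below basal at 60 min and above basal at 30 min in both, and the difference was -1.78 ± 0.12 (edgeR adjusted p = 1.14e-07). In these 2 pairs at 60 min the Y-linked genes had 81.8 and 77.6 CPM in LTP slices and 77.0 and 69.2 CPM in basal slices. Total RNA of Xist there was 20.4 and 21.8 CPM in LTP and 31.4 and 30.3 CPM in basal slices. The RNA difference was -0.61 ± 0.09 (edgeR adjusted p = 0.00328). Whether LTP and basal slices of a pair held the same share of each sex was not tested. Sex makeup of the slices and time cannot be told apart here. Without strand, Xist reads cannot be told apart from those of its antisense partner Tsix.

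**Figure D5:**
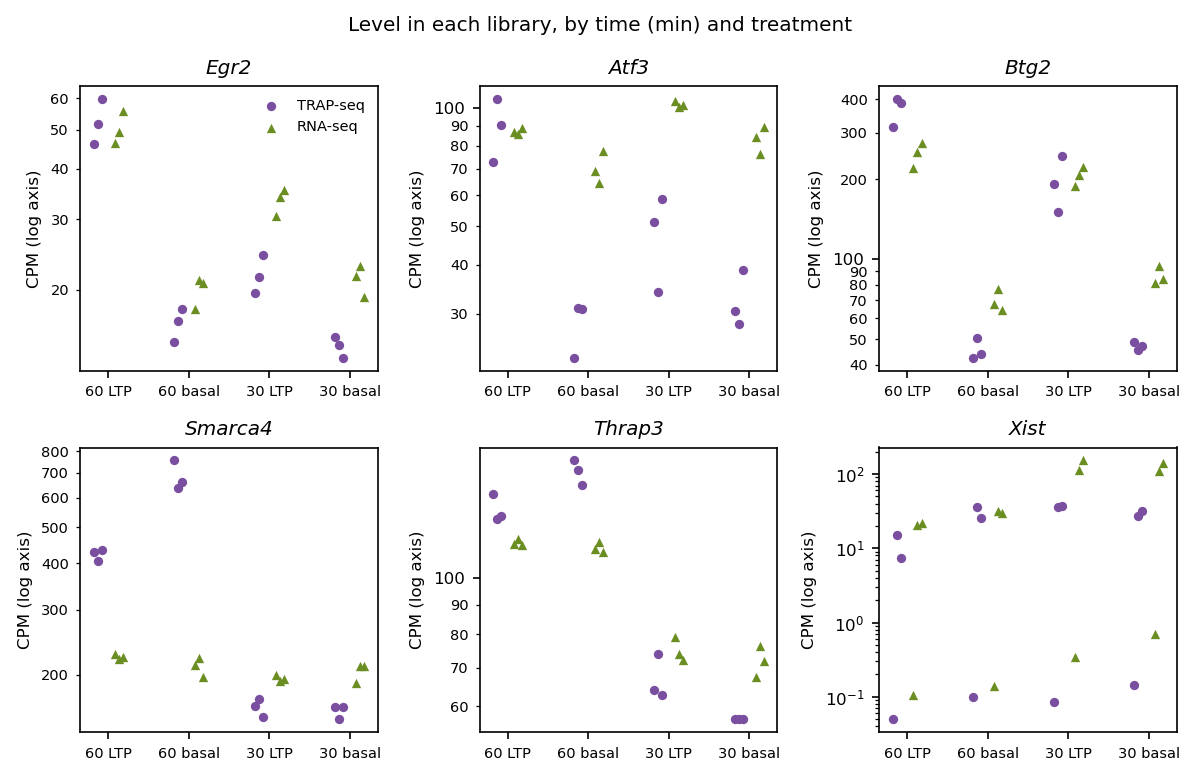
Each point is the level of 1 library in CPM on a log axis, for Egr2, Atf3, Btg2, Smarca4, Thrap3 and Xist, with TRAP-seq as circles and total RNA as triangles. Egr2 and Btg2 are higher in the LTP than the basal libraries of both kinds, and Smarca4 is higher at 60 min in TRAP-seq, 405 to 757 CPM, than in total RNA, 197 to 228 CPM.

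The same contrast in the 12 total RNA libraries of the same slices called 85 of 15653 genes (0.543%), 47 higher (0.3%) and 38 lower (0.243%). Of the 113 genes called higher in TRAP-seq, 98 had an RNA difference above 0 and 17 were called there, with a median of 0.57 in TRAP-seq and 0.26 in RNA. Of the 136 called lower, 135 were tested in RNA, 103 had a difference below 0 and 12 were called, with a median of -0.70 in TRAP-seq and -0.15 in RNA. These genes were chosen for a large TRAP-seq difference, so smaller RNA medians can follow from the choice alone. The medians therefore do not compare TRAP-seq with RNA. The share of all genes with the same direction in both was not computed.

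Atf3 had the largest TRAP minus RNA difference among the named activity-regulated genes. Its total RNA had 86.8, 86 and 89 CPM in LTP slices and 69.2, 64.4 and 77.6 CPM in basal slices at 60 min, and 104, 101 and 102 CPM in LTP slices and 84.4, 76.2 and 89.3 CPM in basal slices at 30 min. LTP was above basal at both times by a similar step, with an RNA difference of 0.02 beside 1.10 in TRAP-seq, and the TRAP minus RNA difference was 1.11 ± 0.11 (edgeR adjusted p = 2.4e-05). Egr1, Fosb and Arc moved in both, with RNA differences of 0.53, 0.45 and 0.39 and TRAP minus RNA differences of 0.11, 0.11 and 0.06 that were not called.

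Over all genes, TRAP minus RNA differed between times for 107 of 15942 (0.671%), 64 higher (0.401%) and 43 lower (0.27%). Of the genes called in TRAP-seq, 19 of the 113 and 29 of the 136 were among them in the same direction. Smarca4 had a TRAP minus RNA difference of -0.85 ± 0.09 (edgeR adjusted p = 2.4e-05). With the length and GC trend removed 25 of 15942 were called, and Egr2, Btg2 and Col6a3 were no longer among them.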

How the data were processed

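The authors mapped reads to mm10 with STAR and normalised them for each time in edgeR, with versions not given in the sources used here. The values used were raw counts of reads per gene, as deposited for each replicate in all-genes tables of 24060 genes. Of 27 symbols turned into dates, 25 were recovered and 2 left out. The 54 other per-replicate columns and the authors' fold changes and FDR values were not used. Rn45s was left out.

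Genes passing edgeR's expression filter were fitted in R 4.3.3 with edgeR 4.0.16 (TMM scaling, quasi-likelihood test), with each LTP and basal pair as a block, in TRAP-seq, in total RNA and in both together. Levels are CPM. The log2 ratios of single pairs carry a prior count of 2. The fitted responses, differences and fold changes do not carry it, so large values of genes with few reads are not damped by it. LTP and basal slices of a number came from the same animals, and their deviations correlated (r = 0.208 to 0.42; other pairings at most 0.0459). On simulated data with 200 of 14847 genes changed, 100% of 2-fold and 98% of 1.5-fold changes were recovered with 3 false calls in the TRAP-seq comparison. The simulated libraries held no differences between pairs, times or sexes, and the lowest expressed genes were left unchanged. Without the block the recovery there was 100% and 97%, with 7 false calls. The simulation therefore checks the code and cannot judge the block or the calls in the real libraries. Alternatives used DESeq2 1.42.0, limma 3.58.1, other scalings and filters, and left out each pair; removal of the length and GC trend without the block or in RNA, the list counts under alternatives and replicate 1 alone were chosen after seeing the data.

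Named genes are the 16 in each direction with the smallest p whose pairs did not overlap between times, up to 4 members of each list, and activity-regulated genes called at either time. Members and lists were chosen with earlier results of these data known. Some members of the lists are counted but not reported here by name.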

Additional observations from a re-analysis of the deposited data

Results flagged for a closer look

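The response differed between 60 and 30 min by a test of the difference itself in 249 genes of TRAP-seq. In 11 of them it passed in opposite directions at the 2 times. The log2 difference was -3.77 for Col6a3, -3.66 for Zic1, -2.93 for Sp8, -2.8 for Zic2, -2.76 for Npffr1, -1.64 for Slc32a1, -1.57 for Sox1, -1.19 for Ttn and -0.88 for Gad2, and it was 1.11 for Papl and 1.05 for Bmp3. Without replicate 1 at 60 min, Sp8 and Npffr1 were no longer called, with -2.28 and -2.21.

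The difference itself differed between TRAP-seq and total RNA in 107 genes. Of the named genes, the TRAP minus RNA value was 1.11 for Atf3, 0.49 for Trib1, 0.46 for Tiparp, 0.45 for Klf4, 0.42 for Egr2 and 0.41 for Btg2. It was -2.52 for Zic2, -1.72 for Col6a3, -1.62 for Slc32a1, -1.14 for Xist, -0.87 for Gad2, -0.85 for Smarca4, -0.6 for Rgs12 and -0.55 for Bcan.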

How the results depend on the processing

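Each of the 249 genes called between times in TRAP-seq kept its direction in every alternative that gave it a value. The alternatives refit the same libraries or part of them, for genes chosen by a large difference. A kept direction was therefore likely from the start and is no separate support. Without the replicate block, 11 genes differed between times in place of 249, 66 in place of 206 responded at 60 min, 76 in place of 277 at 30 min, 0 in place of 85 differed in total RNA (edgeR; 1039 had an unadjusted p under 0.05, and DESeq2 with the block called 11) and 1 in place of 107 differed in TRAP minus RNA. With the length and GC trend also removed and no block, the TRAP-seq counts were 11, 76 and 83, and with the block kept TRAP minus RNA gave 25. DESeq2 with the block called 80 genes between times, 57 at 60 min, 76 at 30 min and 11 in TRAP minus RNA. A mean count of at least 200 left 144, 68 and 100, and an adjusted p with no minimum size gave 745, 2437 and 3326. Leaving out one pair gave 107 to 349 between times, 130 to 240 at 60 min, 218 to 316 at 30 min, 15 to 174 in total RNA and 13 to 391 in TRAP minus RNA. Other scalings, filters and limma gave 206 to 331 genes between times. Depth limits the low genes: 29 of the 136 called lower had a mean under 1 CPM.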
